A study of Mesocricetus auratus with 6 samples.

Results

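The 10 genes described here encode beta-catenin (Ctnnb1), the kinases, scaffolds and ubiquitin ligase adaptor of its destruction complex (Gsk3a, Gsk3b, Csnk1a1, Apc, Axin1, Btrc), and proteins that carry the Wnt signal to that complex (Lrp5, Lrp6, Dvl2). They were taken by gene symbol from a list drawn up with earlier results of these data known, and all 10 were present among the 16078 genes of each library and above the filter on low values. RNA was sequenced from BHK21, a fibroblast-like cell line from the kidney of newborn golden hamsters. One group of 3 libraries came from cells given a plasmid for STYK1/NOK, a membrane protein with a kinase-like domain (STYK1 1 to 3), and the control group of 3 came from cells given the empty plasmid pCMV-Myc (vector 1 to 3). RNA was taken at 48 after transfection, a time for which the labels give no unit. Neither the species of the transfected sequence nor the share of cells that took up plasmid is stated. Nothing in the labels ties the libraries of a group to separate cultures, and every p-value here speaks only of the spread between libraries, which can be technical.

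In cells without a Wnt signal, the scaffolds Axin1 and APC hold beta-catenin next to casein kinase 1 alpha and GSK3, which phosphorylate its amino-terminal end. The F-box protein beta-TrCP, encoded by Btrc, then binds the phosphorylated protein and hands it to the proteasome. When Wnt binds Frizzled together with LRP5 or LRP6, Dishevelled proteins draw Axin1 to the membrane, beta-catenin builds up, and it acts in the nucleus with TCF and LEF factors. Beta-catenin also links cadherins to the actin skeleton at cell contacts. STYK1/NOK has been reported to act on GSK3 and beta-catenin. Those steps are changes of proteins, while the values here are transcript levels, so the comparison asks only whether the transcripts of this machinery differed between the groups.

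Levels were deposited as FPKM, fragment counts scaled to transcript length and to the mapped fragments of the library. This scaling alone did not make the libraries alike in total. FPKM summed to 619840, 554681 and 557946 in vector 1 to 3 and to 528160, 530277 and 542638 in STYK1 1 to 3. The main comparison used no further scaling, and values with other scalings are given beside it. The total reads of each library are unknown. Low FPKM values, which come in steps of single fragments, gave an estimate of 0.979 to 1.03 for the depth of the other 5 libraries relative to STYK1 1. The search covered only ratios near equal depth, and genes of like level give such ratios at any depth. The estimate therefore cannot show that depths were equal. Vector 1 stood apart: its correlation with the other libraries across 11464 genes was 0.963 to 0.976, against 0.988 to 0.993 for pairs without it, and it was the lowest of the 6 libraries for 36.2% and the highest for 37.1% of those genes. The differences of the 10 genes are therefore also given without vector 1. The hamster Styk1 transcript (Gene ID 101839917) measured 1.5, 1.8 and 1.89 FPKM in vector 1 to 3 and 2.04, 2.46 and 2.41 FPKM in STYK1 1 to 3, a difference that did not pass the test (limma adjusted p = 0.470), so overexpression is not shown by these values. Of the fibroblast markers looked up, vimentin (Vim) lay between 3650 and 4141 FPKM, and Fn1, Pdgfra and Pdgfrb were all above 35 FPKM. The collagen genes Col1a1, Col1a2 and Col3a1 lay at or below 1.02 FPKM, Lum at or below 0.8 FPKM and Thy1 at or below 0.18 FPKM. Of 8 kidney epithelial markers found, Epcam, Cdh1, Cdh16, Krt8, Krt18 and Lrp2 did not exceed 0.23 FPKM, Pax8 lay at 0.45 to 1.12 FPKM, and Aqp1, which alone passed the filter, lay at 1.63 to 3.49 FPKM. Of 5 leukocyte markers found, Cd68 lay at 278.84 to 351.27 FPKM, while Ptprc, Adgre1, Itgam and Cd3e did not exceed 0.16 FPKM. Of 4 endothelial markers found, Cdh5 lay at 4.45 to 9.11 FPKM, while Pecam1, Tek and Emcn did not exceed 0.54 FPKM.

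None of the 10 genes passed the test between STYK1 and vector libraries across all genes. With limma, 0 of 10 had an adjusted p under 0.05, and 0 of 10 had an unadjusted p under 0.05. Over all 11464 genes tested, the same counts were 0 (0%) and 1128 (9.84%). The median difference over the 10 genes was 0.12 on the log2(FPKM + 1) scale, with 7 above 0 and 3 below, and it was 0.050 without vector 1. The number above 0 was 9 when FPKM sums were made equal across libraries, which moved the median of all genes to 0.12, 6 with median centring and 7 with quantile normalization. The median over all genes was 0.014, with 6045 of 11464 above 0, and it was 0.019 without vector 1. The libraries of the groups did not overlap for 3 of the 10 genes: Gsk3b and Csnk1a1 lay higher and Gsk3a lower in all 3 STYK1 libraries. Among all genes tested, 23.1% did not overlap, 13.6% higher and 9.44% lower, so 3 of 10 is a share near the background.

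**Figure D1:**
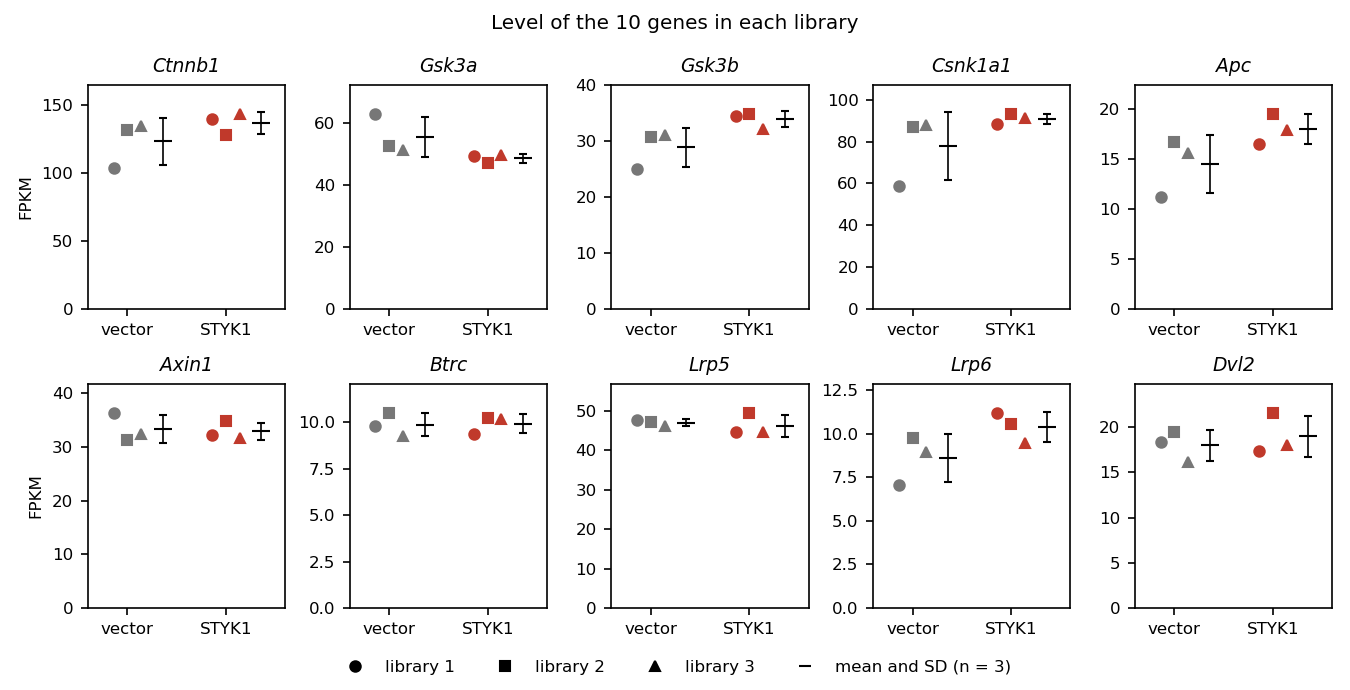
FPKM (vertical axes, each from 0) of the 10 genes in vector (grey) and STYK1 (red) libraries; symbols mark the library number and bars the mean and SD of 3 libraries. Vector 1, the grey circle, is the lowest of the 6 libraries for Ctnnb1, Gsk3b, Csnk1a1, Apc and Lrp6 and the highest for Gsk3a and Axin1.

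GSK3 is made from a pair of genes whose products share their kinase domain and both act in the destruction complex. Gsk3a (Gene ID 101829226), which encodes GSK3 alpha, measured 63.09, 52.66 and 51.21 FPKM in vector 1 to 3 and 49.29, 47.07 and 49.66 FPKM in STYK1 1 to 3. All 3 STYK1 libraries lay below all 3 vector libraries, with vector 1 the highest. Mean levels of Gsk3a were 55.7 ± 6.48 FPKM (SD, n = 3) for vector and 48.7 ± 1.40 FPKM (SD, n = 3) for STYK1. Gsk3a differed by -0.18 ± 0.099 (SE) on the log2(FPKM + 1) scale (95% interval -0.41 to 0.044, limma adjusted p = 0.471), and the value was -0.092 without vector 1.

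Gsk3b (Gene ID 101836282), which encodes GSK3 beta, measured 24.91, 30.69 and 31.05 FPKM in vector 1 to 3 and 34.48, 34.89 and 32.23 FPKM in STYK1 1 to 3. Here the order was the opposite, with every STYK1 library above every vector library and vector 1 the lowest. The means were 28.9 ± 3.45 and 33.9 ± 1.43 FPKM (SD, n = 3 each), a ratio of 1.17. Gsk3b differed by 0.23 ± 0.11 (SE) on the log2 scale, with a 95% interval of -0.018 to 0.47 and the smallest p of the 10 genes (limma adjusted p = 0.469, rank 1534 of 11464). Without vector 1 the value was 0.13.

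With Gsk3a and Gsk3b on opposite sides, the summed GSK3 transcript level overlapped between groups, while the share from each gene did not. The sum was 88.0, 83.4 and 82.3 FPKM in vector 1 to 3 and 83.8, 82.0 and 81.9 FPKM in STYK1 1 to 3. Gsk3b made up 28.3%, 36.8% and 37.7% of that sum in vector 1 to 3 and 41.2%, 42.6% and 39.4% in STYK1 1 to 3. The ratio of Gsk3a to Gsk3b within a library, which a single scaling factor per library leaves as it is, was 2.53, 1.72 and 1.65 in vector 1 to 3 and 1.43, 1.35 and 1.54 in STYK1 1 to 3. Every STYK1 library had a lower ratio than every vector library, which follows from Gsk3a and Gsk3b each not overlapping, in opposite directions. The same holds for the shares, so neither adds to the values of the single genes. The ratio was 1.34-fold lower on the geometric mean. With the groups apart in this way, the two-sided p of an exact permutation test could only be 0.1, the smallest for 3 libraries against 3. The log2 difference of this ratio was -0.42, and -0.23 without vector 1, where the exact permutation test gave p = 0.2. After quantile normalization, which does act on the ratio, it was -0.38.

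**Figure D2:**
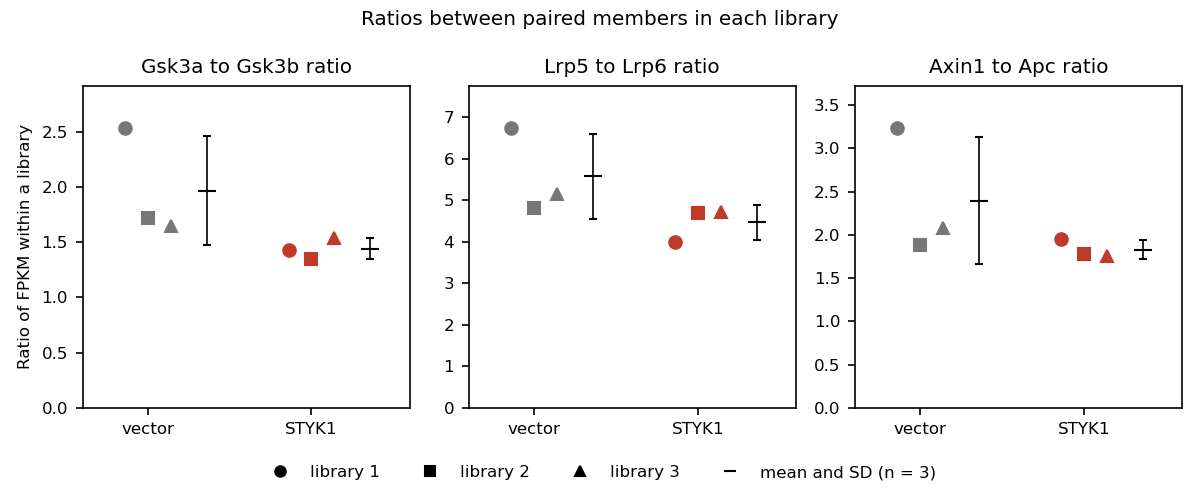
Ratio of FPKM of Gsk3a to Gsk3b, Lrp5 to Lrp6 and Axin1 to Apc within each library (vertical axes from 0), for vector (grey) and STYK1 (red); symbols mark the library number and bars the mean and SD of 3 libraries. Vector 1 has the highest value in all 3 panels, and the STYK1 libraries lie between 1.35 and 1.54 for Gsk3a to Gsk3b.

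Casein kinase 1 alpha places the first phosphate on beta-catenin, which primes it for GSK3. Its gene Csnk1a1 (Gene ID 101837873) measured 58.93, 86.94 and 87.98 FPKM in vector 1 to 3 and 88.58, 93.37 and 91.2 FPKM in STYK1 1 to 3. The groups did not overlap, but vector 2 and vector 3 lay just below the lowest STYK1 library, and vector 1 lay far below the rest. The means of Csnk1a1 were 77.95 ± 16.5 and 91.1 ± 2.40 FPKM (SD, n = 3 each). It differed by 0.24 ± 0.15 (SE) on the log2 scale (95% interval -0.099 to 0.59, limma adjusted p = 0.487), and this value dropped to 0.057 when vector 1 was left out, the largest shift among the 10 genes. Csnk1a1 made up 25.4% ± 3.98 of the summed level of 6 casein kinase 1 genes in vector and 28.2% ± 0.629 in STYK1 libraries (SD, n = 3 each). The shares were 20.8%, 27.6% and 27.7% in vector 1 to 3 and 27.5%, 28.7% and 28.5% in STYK1 1 to 3. The groups overlapped, with vector 1 far below the rest.

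Beta-catenin itself had the highest transcript level of the 10. Ctnnb1 (Gene ID 101822512) measured 103.53, 131.13 and 134.35 FPKM in vector 1 to 3 and 139.22, 127.67 and 143.41 FPKM in STYK1 1 to 3. STYK1 2 lay below vector 2 and vector 3, so the groups overlapped. The means were 123 ± 16.9 and 137 ± 8.15 FPKM (SD, n = 3 each). Ctnnb1 differed by 0.16 ± 0.11 (SE) on the log2 scale (95% interval -0.10 to 0.42, limma adjusted p = 0.526). Leaving out vector 1 brought it to 0.041, with an interval of -0.11 to 0.19.

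The scaffolds gave unlike values. Apc (Gene ID 101840602), a large protein that binds beta-catenin and Axin1, measured 11.22, 16.68 and 15.61 FPKM in vector 1 to 3 and 16.55, 19.54 and 17.94 FPKM in STYK1 1 to 3. Vector 1 was the lowest, and vector 2 lay just above STYK1 1. With means of 14.5 ± 2.89 and 18.0 ± 1.496 FPKM (SD, n = 3 each), Apc had the largest ratio of means of the 10 genes, 1.24, and a log2 difference of 0.31 ± 0.15 (SE; 95% interval -0.038 to 0.66; limma adjusted p = 0.469). That difference was 0.15 without vector 1.

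Axin1 (Gene ID 101838080), the scaffold on which the kinases and beta-catenin are brought together, measured 36.31, 31.32 and 32.42 FPKM in vector 1 to 3 and 32.29, 34.73 and 31.58 FPKM in STYK1 1 to 3. The groups overlapped throughout. Axin1 differed by -0.019 ± 0.093 (SE) on the log2 scale (95% interval -0.23 to 0.20), and by 0.042 without vector 1. With FPKM sums made equal it was 0.090. Axin1 lay above Apc in every library. The Axin1 to Apc ratio was 3.24, 1.88 and 2.08 in vector 1 to 3 and 1.95, 1.78 and 1.76 in STYK1 1 to 3. Vector 2 fell inside the STYK1 range, and the ratio did not separate the groups (two-sided exact permutation p = 0.2). Its log2 difference was -0.35, and -0.11 without vector 1.

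Btrc (Gene ID 101832496), the F-box adaptor that recognises phosphorylated beta-catenin, had the smallest difference of the 10 between groups. It measured 9.82, 10.51 and 9.28 FPKM in vector 1 to 3 and 9.36, 10.25 and 10.2 FPKM in STYK1 1 to 3. The ranges covered each other almost fully. The log2 difference of Btrc was 0.0093 ± 0.11 (SE), and its 95% interval of -0.23 to 0.25 leaves differences of that size possible. Without vector 1 it was 0.0068. The sign of this small value changed under median centring (-0.019) and quantile normalization (-0.049). Fbxw11, the paralogous F-box gene, was the more abundant of the pair and made up 72.7% to 78.8% of their sum across the 6 libraries.

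The co-receptors LRP5 and LRP6 bind Wnt and, once phosphorylated, bind Axin1. Lrp5 (Gene ID 101834231) measured 47.75, 47.16 and 46.18 FPKM in vector 1 to 3 and 44.65, 49.46 and 44.55 FPKM in STYK1 1 to 3. Lrp6 (Gene ID 101842427) measured 7.09, 9.79 and 8.96 FPKM in vector 1 to 3 and 11.2, 10.55 and 9.46 FPKM in STYK1 1 to 3. The groups overlapped for both genes, and for Lrp6 the only vector library above a STYK1 library was vector 2.

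The log2 difference was -0.026 ± 0.083 (SE; 95% interval -0.22 to 0.16) for Lrp5. It was -0.015 without vector 1, and it turned to 0.084 with FPKM sums made equal across libraries and to 0.0022 after quantile normalization. For Lrp6 it was 0.25 ± 0.14 (SE; 95% interval -0.064 to 0.57; limma adjusted p = 0.473), and 0.13 without vector 1. Lrp5 was thus the main co-receptor transcript, with 79.9% to 87.1% of the summed level of the pair. The Lrp5 to Lrp6 ratio was 6.73, 4.82 and 5.15 in vector 1 to 3 and 3.99, 4.69 and 4.71 in STYK1 1 to 3. As with GSK3, all STYK1 libraries had lower ratios than all vector libraries (two-sided exact permutation p = 0.1, the smallest possible). The log2 difference was -0.31, and -0.16 without vector 1, and after quantile normalization it was -0.19, with an exact permutation p of 0.2.

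Dvl2 (Gene ID 101842137), one of the Dishevelled adaptors, measured 18.35, 19.44 and 16.13 FPKM in vector 1 to 3 and 17.4, 21.57 and 18.03 FPKM in STYK1 1 to 3. STYK1 2 was the highest and vector 3 the lowest, and the groups overlapped. Its log2 difference was 0.074 ± 0.12 (SE; 95% interval -0.20 to 0.35), and 0.090 without vector 1. Dvl2 was the smallest part of the Dishevelled transcripts, at 19.2% to 23.5% of the summed level of Dvl1, Dvl2 and Dvl3, while Dvl1 made up 39.4% to 44.8%.

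**Figure D3:**
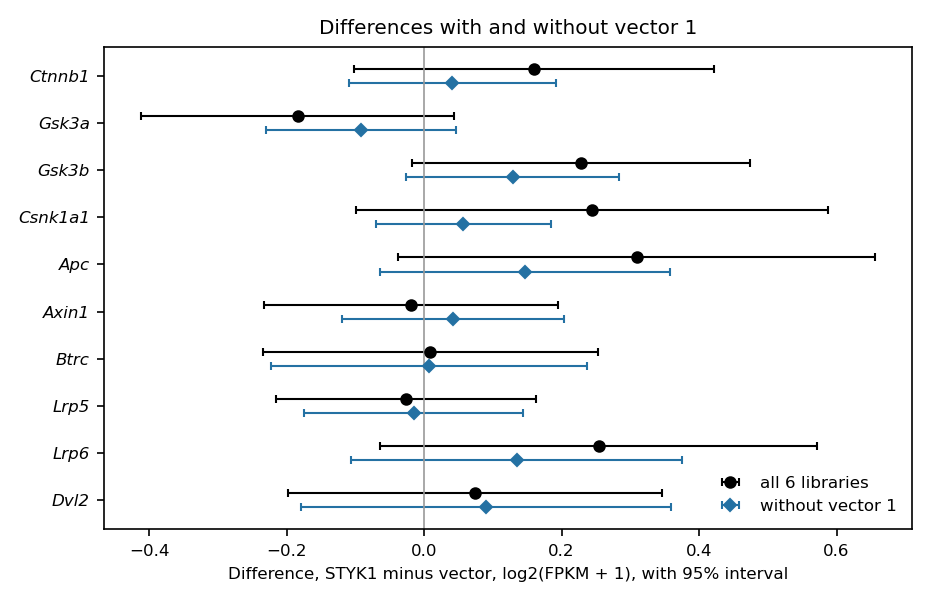
Difference between STYK1 and vector libraries on the log2(FPKM + 1) scale with its 95% interval, for each of the 10 genes, from all 6 libraries (black circles) and without vector 1 (blue diamonds). All 20 intervals include 0, and without vector 1 the points of Csnk1a1 and Ctnnb1 move to 0.057 and 0.041.

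Vector 1 bore on most of these values. It was the lowest of the 6 libraries for 5 of the 10 genes and the highest for 2, and its place among all genes tested is given above. Leaving it out made the log2 difference smaller by over 1.5 times for 7 of the 10 genes and gave Axin1 the other sign, while Dvl2 and Btrc stayed within 1.5 times. Relative to vector 2 and vector 3, vector 1 lay lower by 0.56 for Csnk1a1, 0.49 for Apc, 0.36 for Lrp6, 0.36 for Ctnnb1 and 0.30 for Gsk3b in log2 units. It lay higher by 0.28 for Gsk3a and 0.18 for Axin1. Gsk3a, Gsk3b and Csnk1a1 still did not overlap between groups without it, as follows from the full comparison, beside 29.7% of all genes tested. What set vector 1 apart was not tested.

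The 10 genes spanned a range of levels that was larger than any difference between groups. Ordered by mean over the 6 libraries (± SD), they were Ctnnb1 at 129.9 ± 14.1 FPKM, Csnk1a1 at 84.5 ± 12.7, Gsk3a at 52.2 ± 5.67, Lrp5 at 46.6 ± 1.90, Axin1 at 33.1 ± 1.98, Gsk3b at 31.4 ± 3.61, Dvl2 at 18.5 ± 1.86, Apc at 16.3 ± 2.82, Btrc at 9.90 ± 0.503 and Lrp6 at 9.51 ± 1.43 FPKM. Axin1 and Gsk3b could not be ordered, since each was the higher in 3 of 6 libraries. Btrc exceeded Lrp6 in 4 of 6 libraries, and Csnk1a1 exceeded Gsk3a, and Gsk3a exceeded Lrp5, in 5 of 6. In each of the other neighbouring pairs the order was the same in all 6 libraries. Among all genes tested, Ctnnb1 stood at percentile 94.1 of mean level, Csnk1a1 at 90.3 and Lrp6 at 34.9.

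The genes also differed in how much they varied between libraries of 1 group. On the log2 scale this within-group SD was 0.23 for Csnk1a1 and 0.22 for Apc, against medians of 0.12 and 0.15 for genes of like level. With all 6 libraries, Lrp5 and Btrc had the smallest SD, at 0.062 and 0.075, against medians of 0.13 and 0.17. This order rested on vector 1. Without it the SD of Apc was 0.0997, against a median of 0.098 for genes of like level. Csnk1a1 then had the smallest SD, 0.032, followed by Gsk3a at 0.037, Gsk3b at 0.049 and Axin1 at 0.060, while Lrp5 and Btrc stood at 0.070 and 0.086. Dvl2 was then the most variable at 0.17.

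Likeness of profile was measured as the root mean square difference between log2(FPKM + 1) values over the 6 libraries, each gene centred on its own mean. Closest to Ctnnb1 outside the 10 genes were Pls3, an actin-bundling protein (0.016), Ywhaz, a 14-3-3 protein (0.020), and Me2, a mitochondrial malic enzyme (0.021). Pls3, for instance, measured 32.72, 41.31 and 42.89 FPKM in vector 1 to 3 and 43.6, 41.17 and 44.8 FPKM in STYK1 1 to 3, with the same low value in vector 1. Closest to Gsk3b were C2cd5 (0.0096), Kmt2e, a chromatin regulator (0.013), and Ttc21b, a ciliary transport protein (0.014). The median over all other genes tested was 0.21 for both. The closest genes were picked as the smallest values among all genes tested, over only 6 libraries. Small values are thus built into that choice and do not show a tie between the genes. Within the 10 genes, Gsk3b was closest to Lrp6 (0.059) and Ctnnb1 (0.089), and farthest from Gsk3a (0.29).

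The rest of the pathway was read from 11 lists of Wnt and beta-catenin genes. They hold 182 symbols, of which 146 matched a gene in the files and 109 passed the filter. With limma, 0 of 109 had an adjusted p under 0.05. An unadjusted p under 0.05 was reached by 9 of them, 8 higher and 1 lower in STYK1 libraries, or 8.26% beside 9.84% of all genes (4.95% higher and 4.88% lower). The groups did not overlap for 27 of the 109 genes (24.8%, beside 23.1% of all genes), 19 higher and 8 lower. Taken over both directions, both shares were near the background. By direction, the 8 higher and 1 lower stood beside near-equal shares of all genes, and 4 of the 8 were adherens junction genes. The 19 higher and 8 lower without overlap stood beside 13.6% and 9.44% of all genes. Whether these splits differ from those of all genes was not tested. The median log2 difference over the 109 genes was 0.055, and 0.022 without vector 1.

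**Figure D4:**
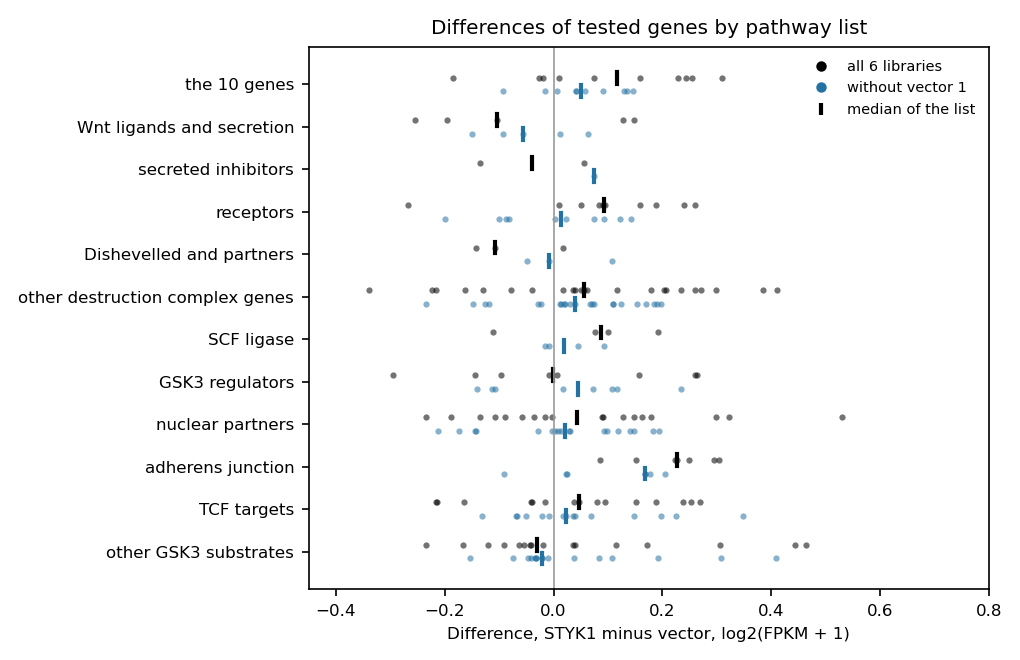
Differences between STYK1 and vector libraries on the log2(FPKM + 1) scale for every tested gene (points) of the 10 genes and the 11 pathway lists, with the median of each list (bars), from all 6 libraries (black) and without vector 1 (blue). The adherens junction list has the highest median, 0.23 with and 0.17 without vector 1.

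Few Wnt ligands reached the filter. Of 16 genes found in the list of ligands and their secretion factors, 5 passed the filter, and 0 of 5 reached an unadjusted p under 0.05. They were Wls, which carries Wnt proteins to the surface, at 28.69 to 36.24 FPKM across the 6 libraries, Porcn, which attaches their lipid, at 26.03 to 39.81 FPKM, and the ligands Wnt6 (2.44 to 3.91), Wnt9a (3.78 to 8.62) and Wnt5a (20.22 to 31.01 FPKM), the last named after its values were seen. The secreted inhibitors were scarcer still. Only Dkk3, at 2.15 to 3.12 FPKM, and Frzb, at 0.7 to 1.69 FPKM, passed the filter out of 8 found.

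Among receptors, 10 of 15 found passed the filter, 9 with a difference above 0, beside 6045 of 11464 genes tested. That count was 6 without vector 1, 8 with median centring and 7 with quantile normalization. Of these 10 receptors, 0 reached an unadjusted p under 0.05. Ryk, a Wnt receptor of the receptor tyrosine kinase type, had the highest level of them. It measured 66.12, 83.97 and 84.25 FPKM in vector 1 to 3 and 90.99, 84.48 and 90.42 FPKM in STYK1 1 to 3, without overlap. Ryk was the only 1 of the 10 without overlap, beside 13.6% of all genes lying higher in this way. Its log2 difference was 0.19 ± 0.11 (SE), or 0.074 without vector 1. Fzd4, the most abundant Frizzled found, lay at 12.54 FPKM in vector 1 and at 16.64 to 23.42 FPKM in the other 5 libraries. Fzd7 had a log2 difference of 0.26 ± 0.17 (SE), or 0.12 without vector 1. Fzd9 had -0.27 ± 0.20 (SE), and it passed the filter only through the vector libraries, with a mean of 1.16 FPKM there and 0.80 FPKM in STYK1 libraries.

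Of the other genes of the destruction complex, 23 were tested, with 2 higher and 1 lower at an unadjusted p under 0.05 and 4 higher and 4 lower without overlap. Over all genes these shares were 4.95% and 4.88%, and 13.6% and 9.44%. The counts come from few genes, and whether they differ from those shares was not tested. The casein kinase Csnk1g3, a membrane-bound kinase of LRP6, measured 15.68, 17.65 and 18.37 FPKM in vector 1 to 3 and 20.93, 21.36 and 20.1 FPKM in STYK1 1 to 3. Its log2 difference was 0.26 ± 0.098 (SE; limma unadjusted p = 0.0277), and 0.20 without vector 1. The phosphatase PP2A removes phosphates within the complex, and its subunits pointed in different directions: the log2 difference was 0.27 ± 0.11 (SE) for Ppp2r5e and -0.22 ± 0.096 (SE) for Ppp2r5b, with limma unadjusted p-values of 0.0423 and 0.0459. Without vector 1, Ppp2r5e had 0.17 and was no longer under 0.05 (limma unadjusted p = 0.0541), while Ppp2r5b had -0.24 (limma unadjusted p = 0.0259). The scaffold subunit Ppp2r1a had -0.22 ± 0.10 (SE), or -0.12 without vector 1. Csnk2b, the regulatory subunit of casein kinase 2, had -0.34 ± 0.16 (SE), or -0.15 without vector 1. It lay at 271.89 FPKM in vector 1 and at 152.71 to 184.31 FPKM in the other 5 libraries. Axin2, both a scaffold and a known target of the pathway, measured 5.18, 4.66 and 3.88 FPKM in vector 1 to 3 and 4.22, 5.61 and 3.56 FPKM in STYK1 1 to 3, with full overlap. Apc2 did not exceed 0.13 FPKM.

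The ubiquitin ligase genes Skp1, Cul1, Rbx1 and Fbxw11 had 0 of 4 at an unadjusted p under 0.05. Skp1 lay at 248.09 to 321.74 FPKM, and Fbxw11 had the largest difference, 0.19 ± 0.11 (SE), which was 0.093 without vector 1. In the Dishevelled list 0 of 3 reached that threshold: the log2 differences were -0.11 ± 0.092 for Dvl1, 0.017 ± 0.083 for Dvl3 and -0.14 ± 0.23 (SE) for Dact3. Without vector 1 they were -0.050, -0.0092 and 0.11, with the sign of Dvl3 and Dact3 turned.

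Kinases that phosphorylate GSK3 gave differences on both sides of 0. Of 8 genes tested in the list of GSK3 regulators, 1 lay higher and 2 lower without overlap, beside 13.6% and 9.44% of all genes. Whether these counts differ from those shares was not tested. The 2 lower ones were Akt1 and Akt2, at 124.94 to 146.88 and 50.34 to 61.55 FPKM. Their log2 differences were -0.097 ± 0.080 and -0.14 ± 0.084 (SE), and that of Akt1 turned to 0.015 with FPKM sums made equal and to 0.0015 after quantile normalization. Sgk1 lay at 304.38 to 428.55 FPKM with overlap, and Prkacb had 0.26 ± 0.15 (SE), or 0.11 without vector 1.

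Nuclear partners of beta-catenin were listed with few TCF factors. Tcf7l2 was the main one, at 1.5, 1.27 and 1.66 FPKM in vector 1 to 3 and 1.78, 1.41 and 1.72 FPKM in STYK1 1 to 3, while Tcf7 stayed below 1 FPKM and Tcf7l1 did not exceed 0.08 FPKM. No gene under the symbol Lef1 was used here. Of 18 genes tested, 0 reached an unadjusted p under 0.05, and 5 lay higher and 2 lower without overlap, beside 13.6% and 9.44% of all genes. Without vector 1, 2 of 18 reached an unadjusted p under 0.05, beside 1085 of 11455 genes in that fit. They were Ctnnbip1 and Tbl1xr1, the latter named after its values were seen. Tbl1xr1, a co-repressor exchange factor, had a log2 difference of 0.53 ± 0.26 (SE), or 0.18 without vector 1. The co-activator Ep300 measured 12.72, 18.31 and 19.08 FPKM in vector 1 to 3 and 20.53, 22.54 and 19.52 FPKM in STYK1 1 to 3. Ctnnbip1, an inhibitor that keeps beta-catenin from TCF, had a log2 difference of -0.19 ± 0.091 (SE), and -0.21 without vector 1. Tle5 and the co-repressor gene Ctbp1 had -0.23 ± 0.10 and -0.11 ± 0.089 (SE), or -0.14 for both without vector 1.

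At cell contacts, beta-catenin works with other catenins. Of 7 adherens junction genes tested, 4 had an unadjusted p under 0.05, all 4 higher and without overlap, beside 4.95% and 13.6% of all genes. All 7 had differences above 0 with each scaling tried, and 6 had without vector 1. Among all genes, 6045 of 11464 lay above 0 in the main fit. The count of 4 was the same without vector 1, beside 1085 of 11455 genes in that fit. It was 3 with quantile normalization, beside 1044 of 11464 genes, and 1 with median centring, beside 1164 of 11464. Ctnnd1, which encodes p120-catenin, measured 39.56, 48.4 and 45.56 FPKM in vector 1 to 3 and 53.81, 50.23 and 54.72 FPKM in STYK1 1 to 3. Its log2 difference was 0.25 ± 0.098 (SE; limma unadjusted p = 0.0340), and 0.17 without vector 1. Vcl, which encodes vinculin, had 0.30 ± 0.12 (SE), and 0.21 without vector 1. Ctnna3, an alpha-catenin, had 0.29 ± 0.12 (SE), and 0.18 without vector 1. Afdn, which encodes afadin and was named after its values were seen, had 0.23. None of the 4 passed over all genes. Ctnna1, the most abundant of the list at 87.03 to 103.37 FPKM, had 0.085 ± 0.084 (SE), or 0.025 without vector 1. Cdh1, the gene of E-cadherin, did not exceed 0.1 FPKM. Other cadherin genes, named after their values were seen, were Cdh11 at 10.16 to 16.73 FPKM and Cdh5 at 4.45 to 9.11 FPKM. Cdh5 had a log2 difference of 0.15, or -0.090 without vector 1.

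Known targets of beta-catenin and TCF gave no common direction. Of 24 found, 15 were tested, and 0 reached an unadjusted p under 0.05. A difference above 0 was seen for 9 (12 with FPKM sums made equal), beside 6045 of 11464 genes tested in the main fit. Cyclin D1 (Ccnd1) measured 16.01, 21.03 and 20.71 FPKM in vector 1 to 3 and 24.55, 20.69 and 24.68 FPKM in STYK1 1 to 3. Myc, in contrast, measured 171.44, 114.85 and 112.4 FPKM in vector 1 to 3 and 102.85, 137.81 and 99.09 FPKM in STYK1 1 to 3, and its log2 difference of -0.22 ± 0.19 (SE) was -0.021 without vector 1. Cd44 lay at 118.75 to 131.16 FPKM in vector and 131.9 to 134.84 FPKM in STYK1 libraries, without overlap, with a log2 difference of 0.080 ± 0.077 (SE), or 0.036 without vector 1. It was the only 1 of the 15 without overlap, beside 13.6% of all genes lying higher in this way. Twist1 and Nrcam had -0.21 ± 0.12 and 0.25 ± 0.17 (SE), or -0.13 and 0.20 without vector 1.

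Of other GSK3 substrates, 16 were tested, with 1 higher at an unadjusted p under 0.05, beside 4.95% of all genes. Dpysl2, a microtubule-binding protein of growing axons, measured 15.02, 14.92 and 14.89 FPKM in vector 1 to 3 and 20.32, 17 and 18.92 FPKM in STYK1 1 to 3. Its vector libraries differed by less than 1 FPKM, and its log2 difference was 0.31 ± 0.0998 (SE; limma unadjusted p = 0.0149), with the same value of 0.31 without vector 1. Nfatc3 and the survival protein gene Mcl1 had 0.46 ± 0.22 and 0.17 ± 0.090 (SE), or 0.19 and 0.11 without vector 1. Nfe2l2, which encodes NRF2, lay at 158.88 to 181.88 FPKM with overlap.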

How the data were processed

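The authors deposited 1 FPKM value per gene for each of 6 libraries, with at most 2 decimals, per the file headers. Bowtie 0.12.2 and the mouse builds mm8 and mm9 are named, with no role, by the submitters' processing notes, while the gene IDs are those of hamster genes. Which annotation and tool gave the FPKM values, and whether strand was used, is not stated, which leaves overlapping genes and close paralogs uncertain. Of 16078 IDs, 15049 matched the RefSeq gene table of BCM_Maur_2.0, used for names only; no coordinates are given.

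Libraries were grouped by their treatment label. The 11464 genes whose mean reached 1 FPKM in either group were fitted on log2(FPKM + 1) by limma-trend with robust empirical Bayes (limma 3.58.1, R 4.3.3), with Benjamini-Hochberg adjustment over all of them. Differences on this scale are smaller than the true log2 folds for genes of low FPKM. Ratios within a library were tested by exact permutation. Relative depth came from the most frequent ratio of values between 0.8 and 6 FPKM, searched only near equal depth.

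The 10 genes, the lists and the tests were chosen with earlier results of these data known. Named in each list were the 3 tested genes with the smallest p and the 2 with the highest mean, and in addition named paralogs of the 10 genes. The 3 genes nearest to Ctnnb1 and to Gsk3b in profile were added. One gene that the rule chose is not reported here. Alternatives were other pseudocounts, filters and scalings, a replicate block, quality weights, no trend and leaving out each library.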

Additional observations from a re-analysis of the deposited data

How the results depend on the processing

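With limma, 0 of the 10 genes passed an adjusted p of 0.05 in any of 16 alternatives (smallest adjusted p = 0.222, Gsk3b with quality weights). Of their 160 values, 146 kept the sign. At an unadjusted p under 0.05 stood Gsk3b and Apc with equal FPKM sums (0.0365 and 0.0496), Gsk3b with quality weights (0.0409), and Apc under the replicate block (0.0474) and without vector 2 (0.0353). Among all genes, the counts at that threshold were 1485 of 11477 with equal FPKM sums and 2365 of 11464 with quality weights. They were 831 of 11464 under the replicate block and 1469 of 11500 without vector 2. At an adjusted p under 0.05, quality weights called 24 of all genes (vector 1 had a weight of 0.129), and leaving out 1 library called 0 to 2. The 109 pathway genes had 0 called in every alternative. The median of the 10 genes was 0.23 with equal FPKM sums, where all genes had a median of 0.12, and 0.050 to 0.17 leaving out 1 library. The split at an unadjusted p under 0.05 was 568 higher and 560 lower, against 1269 and 216 with equal sums and 402 and 762 with median centring. Leaving out 1 library, the log2 Gsk3a to Gsk3b ratio ranged from -0.54 to -0.23, Lrp5 to Lrp6 from -0.41 to -0.16, and Axin1 to Apc from -0.50 to -0.11; the value nearest 0 was the one without vector 1 each time.

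These values had the other sign, and the cause was not tested. With equal FPKM sums: Axin1 0.090, Lrp5 0.084, Akt1 0.015, Axin2 0.053, Ctbp1 0.0022, Dvl1 0.0015, Porcn 0.0055 and Rbx1 1.622e-05. With median centring: Btrc -0.019 and Dvl3 -0.011. With quantile normalization: Lrp5 0.0022, Btrc -0.049, Akt1 0.0015 and Dkk3 -0.014. With quality weights: Axin1 0.027, Dvl2 -0.018, Btrc -0.053, Dkk3 -0.010, Dvl3 -0.0065, Fzd4 -0.0062 and Nfe2l2 -0.015. Leaving out 1 library at a time gave ranges that crossed 0: Axin1 -0.061 to 0.042, Dvl2 -0.016 to 0.13, Btrc -0.030 to 0.051, Axin2 -0.19 to 0.083, Dact3 -0.34 to 0.11, Dkk3 -0.036 to 0.16, Dvl3 -0.0092 to 0.046, Fzd4 -0.10 to 0.31, Nfe2l2 -0.011 to 0.086, Porcn -0.24 to 0.058, Rbx1 -0.22 to 0.00016 and Skp1 -0.0080 to 0.18.

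Whether the replicate numbers in the titles pair the libraries is not settled. Correlations of deviations across genes were -0.27, -0.16 and 0.11 for same-numbered libraries, and -0.28 to 0.28 for differently numbered ones. Deviations were centred within each group of 3 libraries, so these values depend on each other and cannot decide the question. With the replicate block, limma called 0 genes, 831 had an unadjusted p under 0.05 against 1128, and the ratio differences of -0.42, -0.31 and -0.35 had an exact p of 0.25, the smallest that 3 pairs allow. A correction for protein length was planned and was not run, since no lengths were at hand. Absolute depth is unknown, which leaves no counting interval.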
